A study of Homo sapiens with 20 samples.

Results

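The genes described are MEGF9, AGMO, STPG1, NIPAL3, CAVIN1, AKR1A1, DOCK10 and CD99, 8 of the 17526 genes with an iCLIP peak of at least 6 reads in any library and of the 16542 genes with such a U2AF2 peak. They were selected on their U2AF2 reads in peaks, which had been seen to be higher with hnRNPA1 overexpression, so their U2AF2 values are given as a description with no test. Each gene symbol was matched to the Ensembl identifier that begins each peak's name, and all 8 were found. Normalised reads are a gene's reads in peaks of at least 6 reads, divided by a library factor that brings the genes listed in all libraries of a protein to a common level. In each of the 8 genes, all 3 overexpression libraries had more normalised U2AF2 reads than any of the 3 control libraries. The genes were chosen for this rise, so the separation is no support for it, and its share over all genes was not computed. By limma, a different measure, 28.4% of 12709 genes tested passed as higher in U2AF2, which is printed as background only.

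The study crosslinked RNA to protein in TREX FLP-In 293T cells, a human embryonic kidney line with a tetracycline-inducible integration site, and mapped where hnRNPA1, U2AF2 and SRSF1 touched RNA in nuclear extracts by iCLIP. In the overexpression group the cells carried an inducible T7-tagged hnRNPA1 and were selected with hygromycin, where the control cells, without that construct, had zeocin; blasticidin is named for the line as such. Both groups had 3 days of selection and 24 h of tetracycline, so the inducer was shared and the second antibiotic differed along with the construct. U2AF2 and SRSF1 were profiled in 3 overexpression and 3 control libraries each, and hnRNPA1 in 2 and 2. The labels do not say whether libraries of a group came from separate cultures, so p-values measure the spread between these libraries, which may be technical.

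U2AF2 is the large subunit of the U2AF dimer, which binds the pyrimidine-rich tract upstream of the exon and helps to place the U2 snRNP at the branch point. hnRNPA1 is an abundant nuclear RNA-binding protein that often represses splice sites and also coats many intronic and untranslated stretches. SRSF1 is an SR protein that binds within exons and usually favours their use. In iCLIP, reverse transcription stops at the crosslinked base, so a pile of reads marks a place of contact, and its height depends on how much of that RNA was present as well as on binding. RNA levels of these genes were not analysed here, so more RNA of a gene and more U2AF2 per RNA molecule cannot be told apart.

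Depth differed between conditions and in opposite directions for the proteins. U2AF2 libraries held 2317615 to 3291468 reads in peaks with overexpression and 702563 to 1158060 in control cells. hnRNPA1 libraries held 549365 to 575471 with overexpression and 2508821 to 2973275 in control cells, and SRSF1 libraries 175293 to 329448 with overexpression and 125082 to 173766 in control cells. Peaks under 6 reads are not listed in 15 of the 16 libraries, so a value of 0 means no listed peak, not absence of reads. After scaling, 6 reads equalled 2.14 to 2.96 normalised reads in the U2AF2 overexpression libraries and 9.97 to 16.98 in their controls, while for hnRNPA1 they equalled 13.4 to 14.2 with overexpression and 2.35 to 2.71 in control cells. On HNRNPA1 transcripts, which have many near-identical processed copies, hnRNPA1 itself had 541 and 673 normalised reads with overexpression and 522 and 525 in control cells, and iCLIP does not measure the amount of the protein. Of the line's markers, EPCAM had a peak in 11 of 16 libraries, CDH1 in 5, KRT8 in 1 and KRT18 in 0, and of 5 haematopoietic markers LYZ had peaks, in 13 libraries, and the other 4 in 0.

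**Figure D1:**
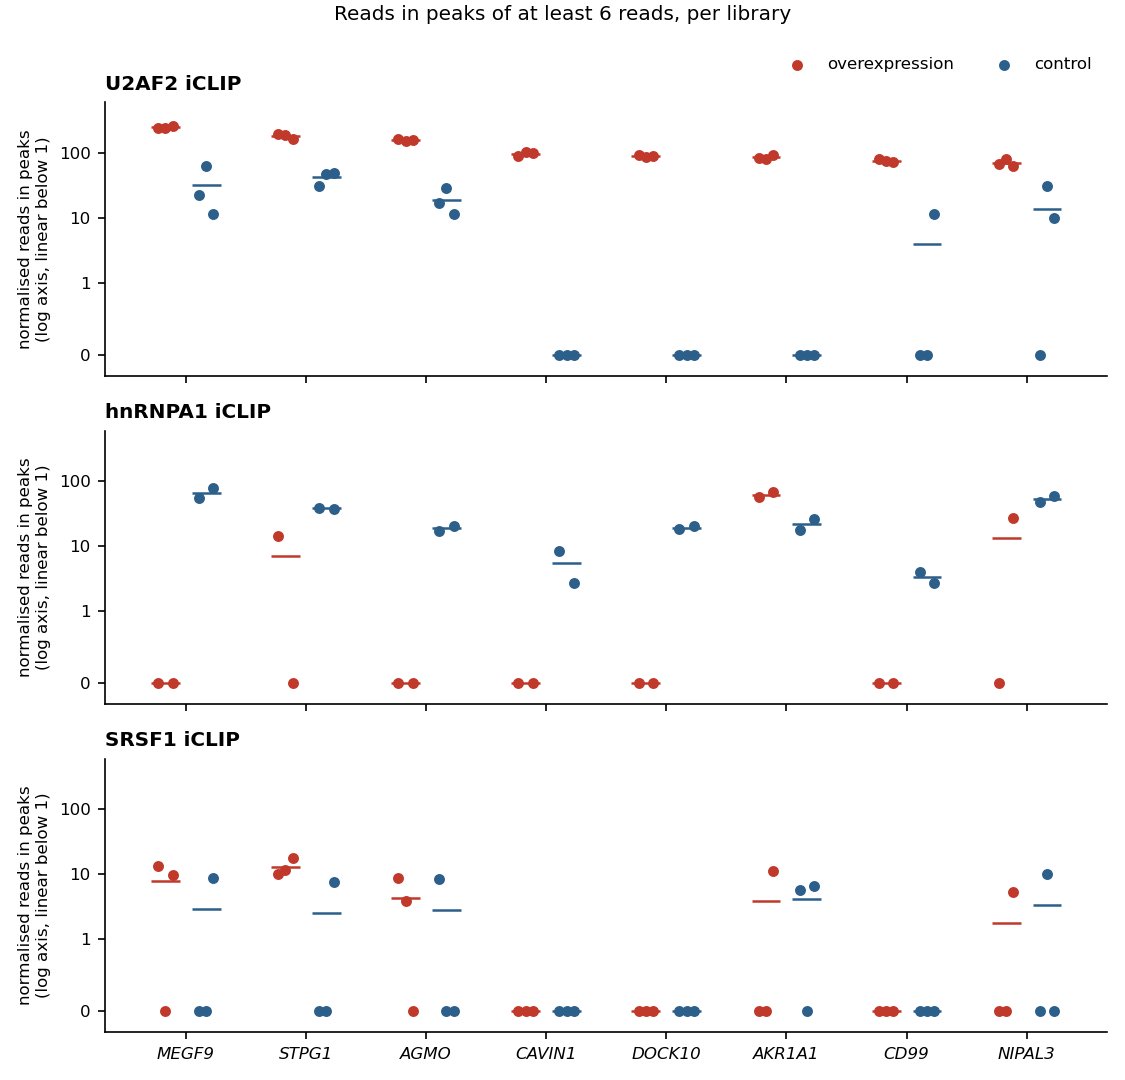
Normalised reads in peaks of at least 6 reads (log axis, linear below 1) for each of the 8 genes in the U2AF2, hnRNPA1 and SRSF1 libraries; points are libraries, bars are group means, overexpression in red and control in blue. U2AF2 points with overexpression all lie above their controls, and in hnRNPA1 libraries AKR1A1 is the gene whose overexpression points lie above both controls.

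Together the 8 genes had 63, 55 and 88 U2AF2 peaks in the overexpression libraries and 3, 8 and 8 in the control libraries. Their reads made up 0.0903%, 0.0881% and 0.0851% of all U2AF2 reads in peaks with overexpression, against 0.00356%, 0.00830% and 0.00492% in control cells. The share was higher in every overexpression library, and it too depends on which peaks reach 6 reads. All 8 genes had a U2AF2 peak in each overexpression library, and 3, 4 and 5 of them had one in the control libraries. Of the 16542 genes with a U2AF2 peak, 13077, 12874 and 14330 had one in the overexpression libraries. In the control libraries 9024, 9322 and 10829 did. The 8 genes were chosen on these libraries, so their counts are a description.

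The genes fell into 3 kinds by where the reads lay. MEGF9, STPG1 and AGMO already had U2AF2 peaks in all 3 control libraries, and their overexpression reads lay mainly on the same places. CAVIN1, DOCK10 and AKR1A1 had no listed U2AF2 peak in any control library. CD99 and NIPAL3 had many low peaks scattered over 47.7 and 51.6 kb.

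MEGF9 (ENSG00000106780), which encodes a membrane protein with EGF-like repeats, had the most U2AF2 reads of the 8. Its normalised U2AF2 reads were 239, 241 and 264 in the overexpression libraries, against 22.6, 62.1 and 11.6 in the control libraries. The overexpression libraries were close to each other, the control libraries differed several-fold among themselves, and the groups did not overlap. The strongest site, chr9:123364288-123364437 on the minus strand in hg19, held 359, 305 and 480 reads with overexpression and 8, 11 and 0 in control cells. A neighbouring site at chr9:123364452-123364587 held 82, 61 and 82 reads with overexpression and 0, 7 and 0 in control cells. A second pair lay 55.7 kb upstream on the transcript, and no U2AF2 control library had a peak there. Its larger site, chr9:123420277-123420475, held 75, 76 and 84 reads with overexpression. So MEGF9 gained both height at a site used in control cells and a new cluster that was of nearly equal size in all 3 overexpression libraries.

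STPG1 (ENSG00000001460) encodes a protein with sperm-tail PG-rich repeats and lies on the minus strand of chromosome 1 beside NIPAL3 on the plus strand. Its normalised U2AF2 reads were 195, 189 and 163 with overexpression and 31.1, 46.6 and 49.8 in control cells, with no overlap. A pair of sites accounted for 98.4% of its overexpression reads. The first, chr1:24695209-24695275, held 272, 238 and 276 reads with overexpression and 0, 10 and 7 in control cells. The second, chr1:24695293-24695474, held 177, 145 and 182 reads with overexpression and 11, 8 and 16 in control cells. Both were present in control cells, and STPG1 had 2 new sites, each in a single overexpression library, with 13 and 8 reads. It had 7, 5 and 5 peaks with overexpression and 1, 2 and 4 in control cells, and after scaling the fitted log2 change in the number of peaks was -0.047, against 2.10 in reads. In AGMO these values were 0.29 in the number of peaks and 3.06 in reads.

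AGMO (ENSG00000187546) encodes alkylglycerol monooxygenase, the enzyme that cleaves ether lipids with tetrahydrobiopterin as cofactor. Its normalised U2AF2 reads were 161, 153 and 156 with overexpression and 16.98, 28.5 and 11.6 in control cells, again without overlap. Every AGMO peak in all 16 libraries fell within 294 nt of chromosome 7. The main site, chr7:15240124-15240198 on the minus strand, held 317, 264 and 367 reads with overexpression and 6, 11 and 7 in control cells. Directly upstream on the transcript, chr7:15240200-15240417 held 73, 45 and 70 reads with overexpression and had no U2AF2 control peak. The old site held 83.5% of the AGMO overexpression reads, so most of the gain was again at a place already bound.

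CAVIN1 (ENSG00000177469) encodes the coat protein that shapes caveolae. It had 90.6, 102 and 98.4 normalised U2AF2 reads in the overexpression libraries and none listed in the control libraries. The lowest of these values was 5.34 times the level of a 6-read peak in the control library with the highest such level. Its 4 sites were each found in all 3 overexpression libraries and spanned 761 nt of chromosome 17. The strongest, chr17:40555659-40555706 on the minus strand, held 152, 148 and 187 reads. The next, chr17:40555878-40555940, held 41, 32 and 43 reads, and chr17:40555711-40555764 held 16, 17 and 27. The reads per site kept the same order in each library.

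DOCK10 (ENSG00000135905), a guanine nucleotide exchange factor, had 93.5, 87.4 and 90.6 normalised U2AF2 reads with overexpression and none listed in control cells. Its strongest site, chr2:225725296-225725348 on the minus strand, held 184, 141 and 199 reads. A second, chr2:225726470-225726614, held 36, 30 and 41 reads, and a further one, chr2:225725471-225725517, held 6, 6 and 8. These 3 were in every overexpression library. The last one lay 162.7 kb upstream and was a single peak of 6 reads in 1 library.

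AKR1A1 (ENSG00000117448) encodes an NADPH-dependent aldehyde reductase. It had 82.8, 81.0 and 93.1 normalised U2AF2 reads with overexpression and none listed in control cells. A pair of adjoining sites near the downstream end of its peaks held 74.9% of them. The first, chr1:46033211-46033345 on the plus strand, held 82, 80 and 104 reads, and the second, chr1:46033363-46033521, held 65, 42 and 95. A smaller site at chr1:46020193-46020263 held 19, 13 and 11 reads. Of its 14 sites, 9 were in 1 overexpression library only, with 6 to 10 reads each.

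**Figure D2:**
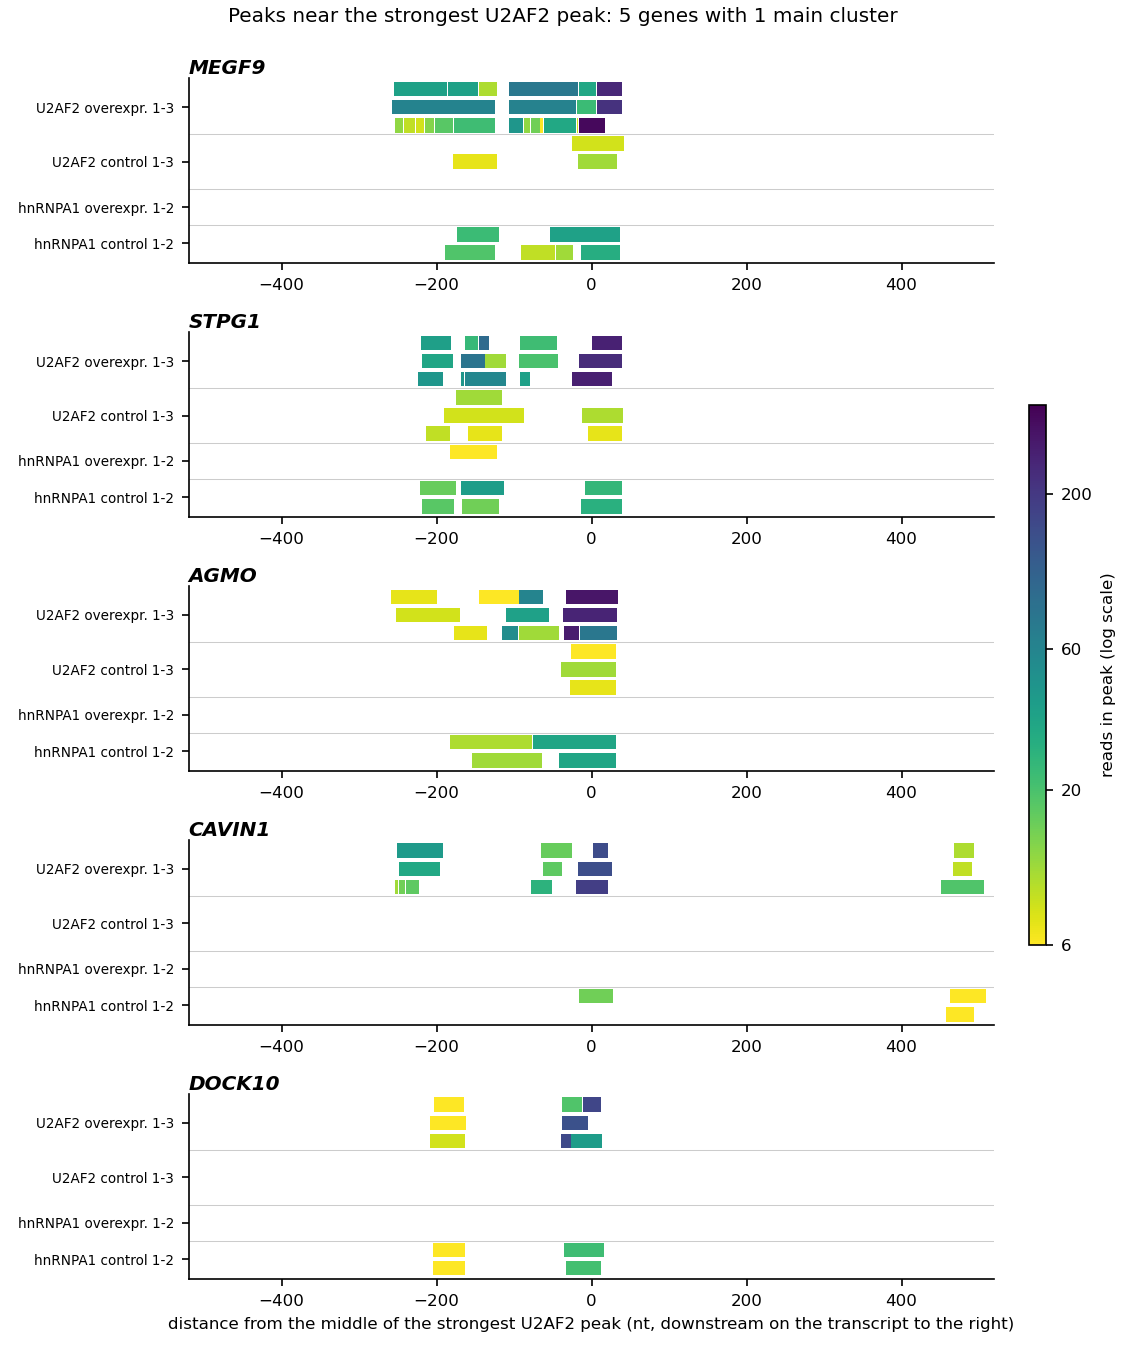
Listed peaks within 520 nt of the middle of the strongest U2AF2 peak in MEGF9, STPG1, AGMO, CAVIN1 and DOCK10, as distance in nt with downstream on the transcript to the right; rows are libraries, overexpression above control, and colour gives reads per peak on a log scale. The tall U2AF2 peaks repeat at the same place in all 3 overexpression libraries, and hnRNPA1 control peaks lie under them, in CAVIN1 from 1 control library only.

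CD99 (ENSG00000002586) encodes a cell-surface glycoprotein and sits in the pseudoautosomal region. Its normalised U2AF2 reads were 79.9, 75.6 and 71.3 with overexpression and 0, 0 and 11.6 in control cells. They were spread over 21 sites and 47735 nt, with a median of 10 reads per peak. The strongest, chrX:2650898-2651212, held 50, 24 and 44 reads with overexpression, chrX:2650469-2650714 held 22, 22 and 22, and chrX:2641980-2642081 held 16, 20 and 14, with no U2AF2 control peak at any of them. Of the 21 sites, 8 were in all 3 overexpression libraries and 9 in 1 only.

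NIPAL3 (ENSG00000001461), a member of the NIPA-like family of predicted magnesium transporters, had 68.3, 80.5 and 62.1 normalised U2AF2 reads with overexpression and 0, 31.1 and 10.0 in control cells. The groups did not overlap, and NIPAL3 had the second widest control range after MEGF9. None of its 19 overexpression sites coincided with the 3 sites found in control cells. The strongest, chr1:24797787-24797864 on the plus strand, held 40, 39 and 43 reads with overexpression, and the adjoining chr1:24797865-24797907 held 32, 22 and 25. At the upstream end of its overexpression peaks, chr1:24746518-24746590 held 18, 19 and 26 reads with overexpression, and its peak was the tallest of the gene in replicate 3.

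**Figure D3:**
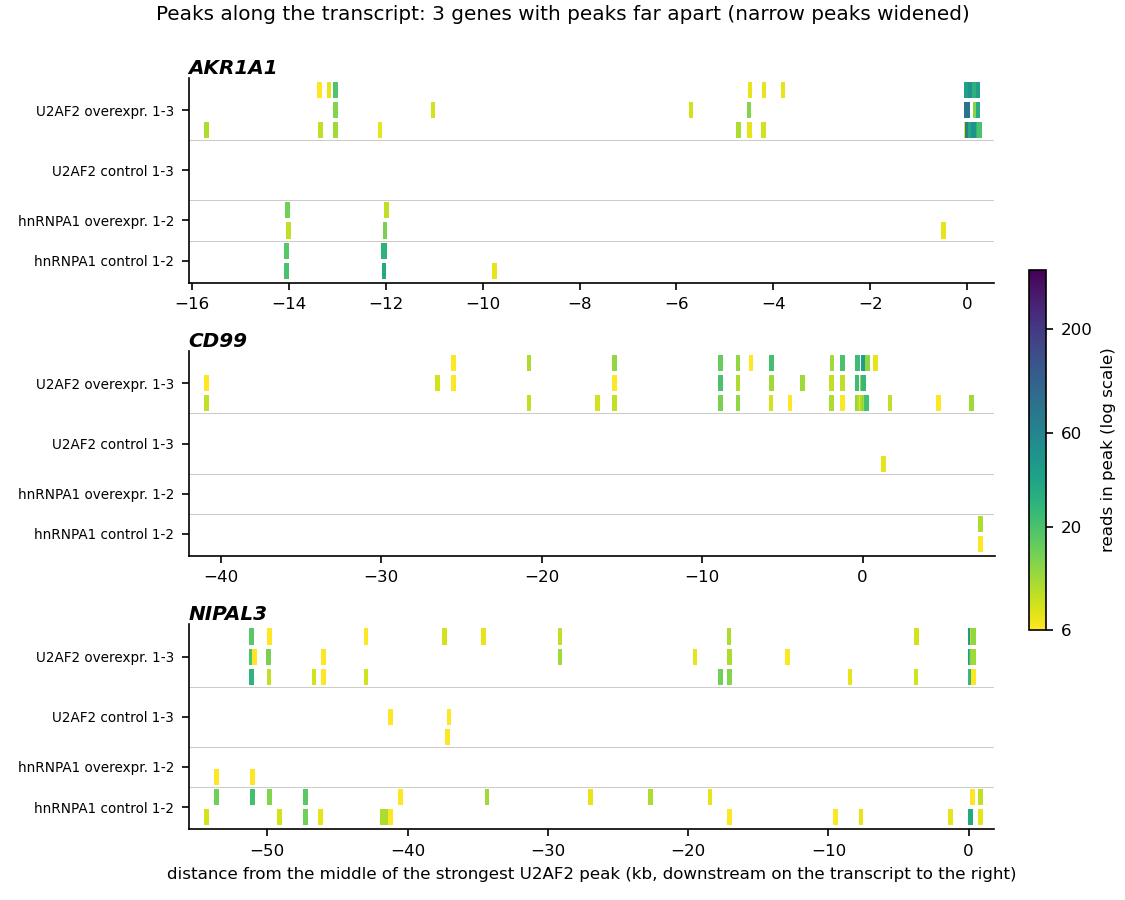
Listed peaks of AKR1A1, CD99 and NIPAL3 as distance in kb from the middle of the strongest U2AF2 peak, downstream on the transcript to the right; rows are libraries, overexpression above control, colour gives reads per peak on a log scale, and narrow peaks are widened to be seen. CD99 and NIPAL3 have many low peaks over 47.7 and 51.6 kb. In AKR1A1 the hnRNPA1 places listed in all 4 libraries lie apart from the tall U2AF2 pair, and 1 low hnRNPA1 peak lies 0.51 kb from it.

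The concentration of reads was summarised as the share within 250 nt of the strongest overexpression peak. It was 100% in AGMO, 98.4% in STPG1, 93.0% in CAVIN1, 82.8% in DOCK10, 75.9% in MEGF9 and 74.9% in AKR1A1. It was 50% in NIPAL3 and 26.7% in CD99. Over the 5506 genes with at least 100 U2AF2 reads in each overexpression library the median was 51.5%, with quartiles of 22.0% and 84.2%, so 6 of the 8 lay above the median and 3 above the upper quartile. The middle of the tallest peak moved by 11 to 48.5 nt between overexpression libraries in these 6 genes, by 163.5 nt in CD99, and in NIPAL3 replicate 3 had its tallest peak at the opposite end of the stretch.

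Merging overlapping U2AF2 peaks gave 74 overexpression sites in the 8 genes, of which 69 (93.2%) had no peak in a U2AF2 control library. Over all genes the share was 89.0% of 176213 sites, so the share of new sites in the 8 genes was near that of any gene. Of the 69 new sites, 28 were in all 3 overexpression libraries, 10 in 2 and 31 in 1. New sites in all 3 made up 40.6% in the 8 genes and 22.8% over all genes, where 88037 of 156785 new sites were in 1 library. The 8 genes were chosen for their U2AF2 reads in these same 3 libraries, so this difference cannot be read as a trait of them. The 5 sites that were not new held 49.5% of the overexpression reads of the 8 genes, against 51.8% over all genes.

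The number of sites counted as new moved with depth. When every library was scaled to the reads of the shallowest U2AF2 library and peaks under 6 scaled reads were dropped, 19 overexpression sites were left and 14 of them were new. That is 73.7%, beside 67.5% of 29122 sites over all genes at the same depth. At that depth MEGF9 had 144, 143 and 124 reads with overexpression and 8, 16.1 and 0 in control cells. CAVIN1 had 50.2, 54.6 and 39.9, DOCK10 had 52.3, 42.7 and 48.7, and AKR1A1 had 38.2, 33.0 and 31.0 with overexpression, all with 0 in the 3 control libraries. NIPAL3 kept 18.7, 18.5 and 0 reads with overexpression and CD99 9.88, 20.01 and 0, both with 0 in every control library, so replicate 3 did not differ from the controls on this measure. This scaling matched total reads, not the chance that a gene with many small peaks keeps one of 6. With every 0 set to the level of a 6-read peak instead, a choice made after seeing the data, the log2 differences in U2AF2 ran between 1.94 in NIPAL3 and 3.22 in MEGF9, against a median of -0.21 over all genes.

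**Figure D4:**
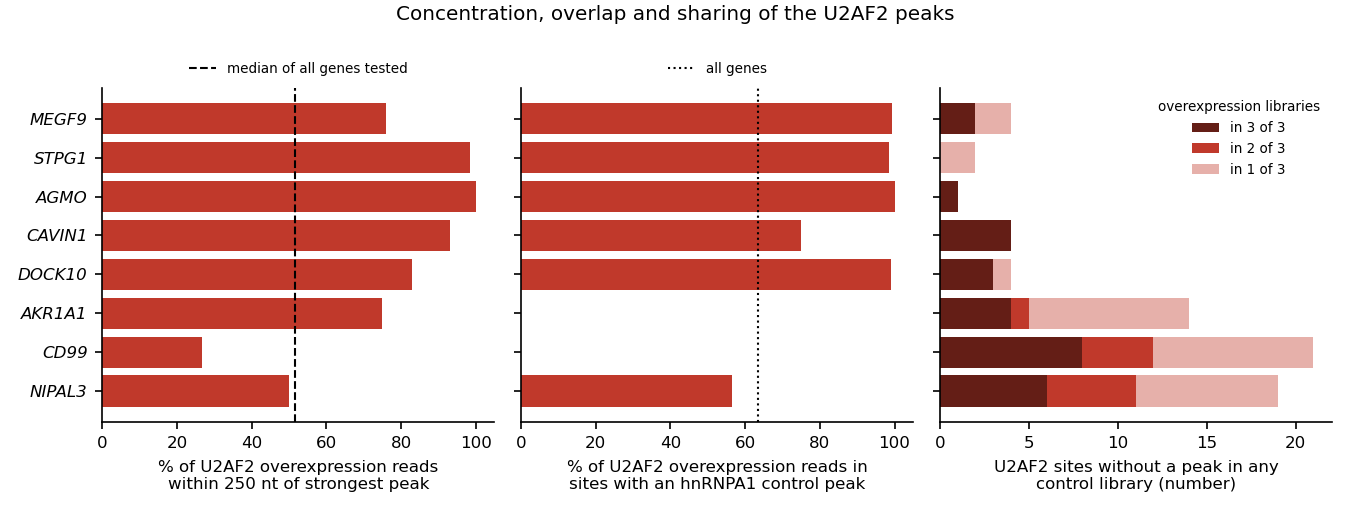
Left, share of each gene's U2AF2 overexpression reads within 250 nt of its strongest peak, with the median of 5506 genes dashed; middle, share of those reads in sites that overlap an hnRNPA1 control peak, with the value over all genes dotted; right, number of U2AF2 sites without a control peak, by how many of the 3 overexpression libraries had them. AKR1A1 and CD99 are at 0 in the middle panel, and CD99 and NIPAL3 have the most new sites.

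hnRNPA1 had a listed peak in all 8 genes in both control libraries. Of the 17526 genes with a peak in any library, 13386 and 12885 had one in hnRNPA1 control replicates 1 and 2. The U2AF2 sites were set against the hnRNPA1 control peaks. Of the 74 overexpression U2AF2 sites, 18 (24.3%, exact 95% interval 15.1% to 35.7%, counting error only) overlapped an hnRNPA1 control peak by at least 1 nt, against 19.0% over all genes. These 18 held 78.0% of the U2AF2 overexpression reads of the 8 genes, against 63.5% over all genes. By gene the share of reads was 100% in AGMO, 99.3% in MEGF9, 99.1% in DOCK10, 98.4% in STPG1, 74.9% in CAVIN1 and 56.6% in NIPAL3, and it was 0 in AKR1A1 and CD99. The strongest CAVIN1 site overlapped a peak in hnRNPA1 control replicate 1 only (15 reads). In NIPAL3 the strongest site and the one adjoining it overlapped a peak in control replicate 2 only (31 reads). At the DOCK10 main site the hnRNPA1 control peaks held 22 and 21 reads, and at the MEGF9 upstream site chr9:123420277-123420475 they held 36 and 46. With overexpression, 1 of the 74 sites overlapped an hnRNPA1 peak, the second STPG1 site, with a peak of 6 reads in 1 library. That is 1.35% of sites holding 6.92% of reads, against 4.14% of sites and 24.1% of reads over all genes, in the shallower hnRNPA1 libraries.

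hnRNPA1 signal was tested over 12461 genes, of which 34.1% passed as lower and 4.31% as higher with overexpression. Of the 8 genes, 5 passed as lower (limma, adjusted over all genes tested) and 3 did not pass, with a median fitted log2 change of -3.34 beside -1.62 over all genes. With every 0 set to the level of a 6-read peak, these medians were -0.43 for the 8 genes and 0.03 over all genes. The 5 were MEGF9, AGMO, DOCK10, CAVIN1 and CD99, and none of them had a listed hnRNPA1 peak in either overexpression library. MEGF9 had 54.7 and 76.8 normalised reads in control cells (adjusted p = 0.00299), AGMO 17.2 and 20.3 (adjusted p = 0.00253) and DOCK10 18.4 and 19.9 (adjusted p = 0.00245). CAVIN1 had 8.21 and 2.71 (adjusted p = 0.0401) and CD99 3.91 and 2.71 (adjusted p = 0.00401), values below the 13.4 to 14.2 that a 6-read peak would have had in the overexpression libraries.

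The size of these differences is not known, since fitted changes against a group at 0 depend on the pseudocount. No fall can be read in CAVIN1 and CD99, whose control values were under the level of a 6-read peak with overexpression. With 0 set to the level of a 6-read peak, the log2 difference was -2.16 in MEGF9, -0.45 in DOCK10 and -0.42 in AGMO, and it turned to 1.34 in CAVIN1 and 1.79 in CD99. The tallest hnRNPA1 control peaks of MEGF9 scaled to 6.65 and 6.35 reads at the depth of the shallowest hnRNPA1 library, those of AGMO to 6.28 and 7.45, and those of DOCK10 to 4.06 and 4.60. Those of MEGF9 and AGMO were thus close to the listing limit. Those of DOCK10 were under it, so no fall can be read from its zeros. With all hnRNPA1 libraries at that depth, 15.4% of 7283 genes passed as lower and 22.7% as higher. MEGF9 then had 13.3 and 12.7 reads in control cells and AGMO 6.28 and 7.45, against 0 and 0 with overexpression in both, and both were called lower (adjusted p = 0.00272 and 0.00245). The MEGF9 control values were made up of peaks of 6.65 scaled reads in replicate 1 and 6.35 in replicate 2. These peaks and the AGMO control values lie just over the 6-read limit below which a peak counts as 0. Both calls thus rest on that limit. CAVIN1, CD99, DOCK10 and NIPAL3 had too few peaks left to test.

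STPG1 had 14.2 and 0 normalised hnRNPA1 reads with overexpression and 38.7 and 37.5 in control cells. Both overexpression values were below both controls, and the difference did not pass (log2 change -3.33 ± 1.61 SE, adjusted p = 0.224). It passed with either overexpression library left out, at -5.68 without replicate 1 and -1.36 without replicate 2, and did not pass without control replicate 1 (adjusted p = 0.871) or 2 (adjusted p = 0.864). NIPAL3 had 0 and 26.7 with overexpression and 48.1 and 57.8 in control cells (log2 change -3.35 ± 1.95 SE, adjusted p = 0.285), and it passed at -6.13 without overexpression replicate 2. It did not pass without overexpression replicate 1 (-0.88, adjusted p = 0.0727) or without control replicate 1 or 2 (adjusted p = 0.668 and 0.740).

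AKR1A1 had the other pattern. Its normalised hnRNPA1 reads were 56.7 and 66.9 with overexpression and 17.6 and 26.2 in control cells, higher in both overexpression libraries. The log2 change of 1.48 ± 0.35 (SE) did not pass (adjusted p = 0.0546). It passed without overexpression replicate 1 (1.68) or 2 (1.39) and did not pass without control replicate 1 (1.17, adjusted p = 0.640) or 2 (1.71, adjusted p = 0.369). At equal depth the reads were 24 and 28.6 with overexpression and 0 and 6.79 in control cells (adjusted p = 0.192). A pair of hnRNPA1 places was listed in all 4 libraries, about 14 and 12 kb upstream of the tall U2AF2 pair. At the first the reads were 15 and 9 with overexpression and 18 and 20 in control cells, and at the second 9 and 14 with overexpression and 27 and 31 in control cells, while the control libraries held 4.36 to 5.41 times as many reads. No U2AF2 site of AKR1A1 overlapped either.

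SRSF1 was tested over 5598 genes, of which 6.38% passed as higher and 1.95% as lower. MEGF9, AGMO, STPG1 and AKR1A1 had enough SRSF1 peaks to test and none passed by limma, with an unadjusted p below 0.05 for STPG1 alone (0.0441). STPG1 had 9.86, 11.5 and 17.3 normalised SRSF1 reads with overexpression and 0, 0 and 7.57 in control cells. The log2 change was 2.73 ± 1.11 (SE, adjusted p = 0.250). A 6-read peak equalled 9.98 in SRSF1 control replicate 2, above the lowest overexpression value, so the 0 there shows no separation. With every 0 set to the level of a 6-read peak, the log2 difference was 0.67. All listed SRSF1 reads of STPG1 lay within 250 nt of its tall U2AF2 peak. MEGF9 had 13.2, 0 and 9.78 with overexpression and 0, 0 and 8.65 in control cells (adjusted p = 0.655). AGMO (adjusted p = 0.754) and AKR1A1 (adjusted p = 0.795) had at most 11.3 in any library. NIPAL3 had an SRSF1 peak in 1 overexpression and 1 control library, and CAVIN1, DOCK10 and CD99 in none of the 6. SRSF1 overexpression peaks overlapped 7 of the 74 U2AF2 sites (9.46%) and SRSF1 control peaks 4 (5.41%), against 7.87% and 5.64% over all genes.

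Whether a site lies in an exon, an intron or an untranslated region was not analysed here. Cassette-exon inclusion was read from the authors' deposited table of 251 events. None of its events fell between the first and last listed peak of any of the 8 genes. These stretches were as short as 294 nt in AGMO and 764 nt in CAVIN1, so events elsewhere in a gene would be missed. The search therefore does not show that exon inclusion was unchanged in these genes.

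Relatives and pathway partners of the 8 genes were listed for comparison: 50 genes, 32 with peaks in the files. In U2AF2, 28 could be tested, of which 5 passed as higher, 5 as lower and 18 did not pass, beside 28.4% higher and 17.4% lower over all genes. The median fitted log2 change was 0.44, against 0.75 over all genes. The enzymes that build ether lipids, the substrates of AGMO, were among the lower ones. FAR1, which makes the fatty alcohol, had 115, 126 and 85.6 normalised U2AF2 reads with overexpression and 1463, 1235 and 1603 in control cells (log2 change -3.72 ± 0.18 SE, adjusted p = 0.000128). GNPAT, the first acyltransferase, had 62.9, 64.7 and 58.5 with overexpression and 249, 305 and 500 in control cells (-2.42 ± 0.27, adjusted p = 0.000848). AGPS, which forms the ether bond, had 54.6, 54.3 and 52.4 with overexpression and 116, 137 and 334 in control cells (-1.68 ± 0.42, adjusted p = 0.0207), and PEDS1, the plasmanylethanolamine desaturase, fell too (-1.42 ± 0.22, adjusted p = 0.00328). FAR2 did not pass (-1.09 ± 1.73, adjusted p = 0.635).

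The relatives with the 3 largest called rises in U2AF2 had no listed control peak, so the order of these fitted changes rests on the pseudocount. They met the filter only through the overexpression libraries, so their fitted changes could only be positive. AKR1B10, an aldo-keto reductase with the close copy AKR1B15, had 38.5, 40.5 and 29.6 normalised reads with overexpression (adjusted p = 0.00014). The magnesium transporter gene NIPA1 had 19.9, 14.8 and 87.0 (adjusted p = 0.00254), high in 1 library. Its lowest value was under the 16.98 of a 6-read peak in U2AF2 control replicate 1, so the 0 there shows no separation. DOCK6 had 3.31, 3.46 and 3.21 (adjusted p = 0.000128), under the level of a 6-read peak in the control libraries, so no rise can be read from it. With listed control peaks, CAV2, a caveolin gene, had 74.9, 77.6 and 78.5 with overexpression and 19.8, 18.1 and 26.6 in control cells (adjusted p = 0.00288), and DOCK8 had 113, 131 and 129 with overexpression and 53.8, 69.9 and 78.1 in control cells (adjusted p = 0.012). In hnRNPA1, 12 of 28 relatives passed as lower and 1 as higher, beside 34.1% and 4.31% over all genes, with a median of -2.04 against -1.62 over all genes. Among the lower ones were GCH1, PTS, NIPAL1, NIPA1, CAVIN4, AKR1B1, AKR1B10, AKR1D1, AKR7A2, DOCK1 and DOCK9, and of these all but DOCK1 and DOCK9 were listed at 0 in both overexpression libraries. Those at 0 met the filter only through the control libraries, so their fitted changes could only be negative. The control values of GCH1, AKR1B1, AKR1B10, AKR1D1 and AKR7A2 were all under the 13.4 to 14.2 of a 6-read peak with overexpression, so no fall can be read from their zeros. DOCK9 had 102 and 75.8 with overexpression and 294 and 224 in control cells, and DOCK1 had 63.8 and 75.8 with overexpression and 138 and 129 in control cells. AGPS was the higher one, with 187 and 158 with overexpression and 64.9 and 55.6 in control cells (adjusted p = 0.013). In SRSF1, 1 of 11 passed, GNPAT, with 6.58, 23.0 and 12.8 with overexpression and none listed in control cells (adjusted p = 0.0272). GNPAT met the filter only through the overexpression libraries. A 6-read peak equalled 9.98 in SRSF1 control replicate 2, above the lowest overexpression value, so the 0 there shows no separation.

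Across the 16 libraries, with each protein centred on its own mean, the genes most like the mean of the 8 were P2RY11 (Pearson r = 0.98), TNFAIP8L1 (0.98) and ZNF337 (0.98) among 9368 genes compared. The libraries share protein, depth and condition, so the correlation is a description. P2RY11, a purinergic receptor gene, had 21.4 to 27.2 normalised U2AF2 reads with overexpression and none listed in control cells, and in hnRNPA1 none listed with overexpression and 15.4 to 16.8 in control cells. TNFAIP8L1 had 447 to 478 in U2AF2 with overexpression and 118 to 142 in control cells, and in hnRNPA1 30.7 to 35.7 with overexpression and 89.5 to 90.7 in control cells. ZNF337 had 863 to 1082 in U2AF2 with overexpression and 294 to 347 in control cells. Among the 8, DOCK10 was most like their mean (0.98) and STPG1 least (0.65).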

How the data were processed

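Per the labels and file headers, reads of each library were mapped to hg19 and peaks were called per library with CLIPper; the submitters' processing notes name Bowtie2 and TopHat, and versions are not given in the sources used here. The deposited peak name holds the whole number of reads per peak, which is the measure used. Exon inclusion, deposited by the authors as a fraction per library for each pair of libraries compared, was read for the position of events. The peaks' own p-values were not used. Gene structure was not used here, since the annotation at hand is of another build.

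Peaks of at least 6 reads were summed per gene, scaled by median-of-ratios factors taken from the genes that every library of that protein lists, and tested as log2(normalised reads + 1) with limma 3.58.1 in R 4.3.3, with Benjamini-Hochberg adjustment at 0.05, for genes with a peak in at least 50% of a protein's libraries. The fit was tested on simulated data. Fold sizes are on the log2(value + 1) scale, which shrinks changes between low listed values and can overstate those against libraries listed at 0. U2AF2 sites are peaks of a gene and strand merged where they overlap by 1 nt or more. The 8 genes, the relatives and the tests were chosen with earlier results of these data known. For each gene the text names the site with most overexpression reads and up to 2 more sites found in all overexpression libraries, and further sites chosen after their values were seen. Of the relatives it names the 3 largest called rises and falls in U2AF2 and those called in hnRNPA1 or SRSF1, of which 1 is not reported here; PEDS1, FAR2, CAV2 and DOCK8 were added after their values were seen. Of 19362 gene identifiers, 17814 matched a name.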

Additional observations from a re-analysis of the deposited data

Results flagged for a closer look

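A second annotated copy of CD99 in the pseudoautosomal region had reads outside the values given for CD99. In U2AF2 overexpression replicate 3 it had 19 peaks of at least 6 reads with 212 reads, and no other library listed a peak for it, the control libraries included. Counting every peak deposited for that library, the copy had 35 peaks with 269 reads and the main copy 29 peaks with 237 reads, and 4 of the intervals were the same on both after the fixed offset of 50000 nt. This library is also the one with peaks listed from 3 reads. Reads of identical copies cannot be assigned to one of them, so the CD99 value of this library may be understated. No group had 4 or more libraries, so no library was screened as far from the others.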

How the results depend on the processing

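The number of genes passing moved with the settings below; the cause was not tested. For U2AF2 it was 5823 (3615 higher, 2208 lower), 3412 with number of peaks per gene, and 2641 to 6524 with 1 library left out; with the total reads as scale 78.5% of calls were higher, at equal depth 40.7%, and as fitted 62.1%, and that scale moved the all-gene median from 0.75 to 1.47. For hnRNPA1 it was 4791, 1023 with a peak in every library, 2772 at equal depth and 319 to 7699 with 1 library left out; 11.2% of calls were higher as fitted, 59.6% at equal depth. For SRSF1 it was 466, 97 with a pseudocount of 5, 29 without a filter, 125 with a peak in every library and 2 to 458 with 1 library left out; 25.2% of calls were higher at equal depth, 76.6% as fitted. The low counts came without overexpression replicate 1, 2 or 3 for U2AF2 (2641, 2691 and 3010), without control replicate 1 or 2 for hnRNPA1 (319 and 345), and without any SRSF1 library but control replicate 1 (2 to 67). Where 1 library was left for a group, it is assumed to vary like the others.

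With the replicate number as a block, 4834 genes passed in U2AF2, 4337 in hnRNPA1 and 1 in SRSF1. Same-numbered libraries did not deviate together (r between -0.01 and 0.01), so the numbers were not taken as pairs.

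New U2AF2 sites in the 8 genes numbered 69, 40 with peaks of at least 10 reads, 14 at equal depth and 56 to 71 with 1 library left out. The overlap with hnRNPA1 control peaks was 24.3%, and 36.4% with peaks of at least 10 reads. Of 104 alternative U2AF2 values for single genes, 1 changed sign, the number of peaks in STPG1 (-0.047), and 33 moved by more than the spread between libraries, within 0.29 to 5.53 in AGMO, 1.05 to 6.19 in MEGF9 and -0.047 to 4.12 in STPG1. Of 81 planned hnRNPA1 values none changed sign, 7 newly passed and 2 no longer passed, both in CAVIN1 (-1.01 with a pseudocount of 5, adjusted p = 0.0889; -2.55 without a filter, adjusted p = 0.0601; range over its alternatives -2.88 to -0.91). Listed at 0 in both hnRNPA1 overexpression libraries, MEGF9, AGMO, DOCK10, CAVIN1 and CD99 could only have negative values in these settings. Their unchanged sign was thus fixed in advance and is no support. Without a control library, these 5 genes failed the filter and had no hnRNPA1 value, so their calls were not tried there. Likewise CAVIN1, DOCK10 and AKR1A1 had no U2AF2 value without an overexpression library. With no listed peak in any U2AF2 control library, these genes could only have positive U2AF2 values in the other settings. All 39 SRSF1 values stayed on the same side. With zeros at the level of a 6-read peak, chosen after seeing the data, hnRNPA1 changes turned to 1.34 in CAVIN1 and 1.79 in CD99, and the SRSF1 change in AGMO to -0.52.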
